A study of Mus musculus with 6 samples.

Results

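The mitochondrial carriers of the SLC25 family were examined in RAW 264.7 cells, a mouse macrophage line. The genes were all rows of the deposited count table that were annotated as protein coding and had a symbol starting with Slc25, which gave 47 of 57010 genes. A single further row with such a symbol, the pseudogene Slc25a5-ps, was left out by its annotation. The rule used annotation and symbol only and no expression value, although the family was taken up with earlier results of these data known. Lipopolysaccharide, a component of bacterial cell walls, was given first to all cells and brings such cells into an inflammatory state. They then received extracellular vesicles of tendon stem cells that had been preconditioned in hypoxia (hypoxic-EV, 3 libraries) or kept in normoxia (normoxic-EV, 3 libraries). Each value sets one vesicle treatment against the other, and no library of cells without vesicles was analysed here. The sources used here do not give the vesicle dose, the treatment time or the species of the tendon stem cells. Whether the 3 libraries of a group stand for separate cultures is not said in the labels, and p-values cover only their spread, which may be technical.

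SLC25 proteins form the largest family of solute carriers and most of them sit in the inner mitochondrial membrane, which lets few metabolites pass without a transport protein. Each is built from repeats of paired membrane helices and moves a small set of substrates, usually by exchange, such as ADP for ATP, citrate for malate or aspartate for glutamate. In inflammatory macrophages the export of mitochondrial citrate is known to feed the synthesis of lipids and inflammatory mediators.

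Library totals ran from 16751665 to 23422328 counts. Macrophage markers were present, with Lyz2, Cd14 and Cd68 among them, and 9 of 10 passed edgeR's filter on low counts. Of those 9, 2 were called higher and 6 lower in hypoxic-EV, beside 44.2% of all 13303 tested genes called in either direction. The largest changes went both ways: Csf1r, the receptor gene of macrophage colony-stimulating factor, had a log2 fold change of 1.02 and Adgre1, the F4/80 gene, had -0.80. The summed macrophage markers ran from 8495 to 8895 CPM (counts scaled to a common library size) in hypoxic-EV libraries and from 10514 to 10946 CPM in normoxic-EV libraries, of which Lyz2 alone gave 6091 ± 176 CPM in hypoxic-EV and 7946 ± 208 CPM in normoxic-EV (SD, n = 3 each). The part of these differences in the carrier results was not tested. Mertk was under the filter. Markers of tendon or stromal cells summed to between 0.99 and 1.59 CPM in hypoxic-EV libraries and between 1.14 and 2.39 CPM in normoxic-EV libraries, and none of 12 passed the filter, with 5 at 0 counts. Lymphocyte markers summed to at most 0.215 CPM in hypoxic-EV libraries and 0.267 CPM in normoxic-EV libraries, with 4 of 6 at 0 counts.

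Levels of different carriers were compared in FPKM, the authors' value scaled by gene length and library total. The ADP/ATP carrier gene Slc25a5 led the family with a mean over all 6 libraries of 302 FPKM. It was followed by the phosphate carrier gene Slc25a3 at 77.5 FPKM, the second ADP/ATP carrier gene Slc25a4 at 73.2 FPKM, the glutathione carrier gene Slc25a39 at 66.1 FPKM and the iron carrier gene Slc25a37 at 52.6 FPKM. Such distances depend on the length assigned to each gene. In CPM, Slc25a5 had means of 559 in hypoxic-EV and 437 in normoxic-EV, and Slc25a3 had 476 and 385. These 5 genes made up 70.7 ± 0.373% of the summed FPKM of the family in hypoxic-EV and 67.2 ± 0.127% in normoxic-EV (SD, n = 3 each). Of the 47 genes, 37 passed the count filter, each with at least 28 counts in every library, and their median level was 6.25 FPKM.

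The other 10 genes were under the filter and got no test. Slc25a21, a gene of the oxodicarboxylate carrier, had 0 counts in every library; by counting error alone, a level of up to 0.179 CPM could give 0 in the shallowest library. Slc25a31, the testis ADP/ATP carrier gene, and Slc25a54 had a single count, both in the same normoxic-EV library. Slc25a41, Slc25a27, Slc25a34 and Slc25a2 totalled 4, 3, 3 and 10 counts in hypoxic-EV, against 2, 1, 6 and 5 counts in normoxic-EV. Slc25a48 had 12 counts in hypoxic-EV and 21 in normoxic-EV, and the basic amino acid carrier gene Slc25a29 had 7 in hypoxic-EV and 25 in normoxic-EV. Slc25a18, a glutamate carrier gene, had 23 counts in hypoxic-EV and 10 in normoxic-EV, but it shares exon bases with Atp6v1e1 on the other strand, which had 16863 counts, so these few reads are uncertain.

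Promoters are shown for the called genes whose proteins carry dicarboxylates, aspartate and glutamate, citrate and phosphate, as RefSeq gives them in build GRCm38.p6, an older build than that of the counts. The windows are the bases just before the annotated start, at chr11:120491587-120491836 on the plus strand for Slc25a10, and on the minus strand at chr6:6217174-6217423 for Slc25a13, chr16:17928220-17928469 for Slc25a1 and chr10:91124060-91124217 for Slc25a3. For Slc25a3 the 92 bases next to the start, annotated as untranslated region of another transcript, were left out. Capitals mark an E-box (CACGTG, its own reverse complement) in Slc25a13 and Slc25a1, and a match to the NRF1 motif (GCGCA, any base, then GCGC; read on the other strand) in Slc25a3.
Slc25a10: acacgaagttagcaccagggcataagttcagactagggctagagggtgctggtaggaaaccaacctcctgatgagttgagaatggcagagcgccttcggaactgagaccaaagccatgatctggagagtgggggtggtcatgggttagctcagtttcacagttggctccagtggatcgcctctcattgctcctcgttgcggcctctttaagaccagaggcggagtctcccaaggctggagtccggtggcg
Slc25a13: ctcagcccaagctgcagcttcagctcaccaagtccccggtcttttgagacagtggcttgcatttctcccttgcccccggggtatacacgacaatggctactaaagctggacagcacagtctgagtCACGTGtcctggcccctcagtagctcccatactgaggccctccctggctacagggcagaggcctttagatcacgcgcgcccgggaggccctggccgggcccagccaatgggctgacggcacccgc
Slc25a1: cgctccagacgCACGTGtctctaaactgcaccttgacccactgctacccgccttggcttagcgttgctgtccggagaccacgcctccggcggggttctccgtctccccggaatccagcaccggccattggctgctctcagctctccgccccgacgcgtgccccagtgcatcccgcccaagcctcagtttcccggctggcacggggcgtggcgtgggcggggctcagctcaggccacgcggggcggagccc
Slc25a3: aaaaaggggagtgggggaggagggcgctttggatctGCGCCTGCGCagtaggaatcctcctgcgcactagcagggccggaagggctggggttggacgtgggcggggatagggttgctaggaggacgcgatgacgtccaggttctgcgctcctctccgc
Of the 47 genes, 36 had at least 1 promoter in the RefSeq table, with 46 windows of 250 bases before the start. The E-box was in 17.4% of these windows (8 windows of 7 genes) and in 6.02% of all 32851 windows of the table. GCGTG and ACGTG, the core letters of the hypoxia response element read on both strands, were in 50.0% and 26.1% of the carrier windows, against 28.2% and 16.6% of all windows; every E-box also counts as ACGTG. The NRF1 motif was in 4.35% of the carrier windows and 3.74% of all windows, and CCAAT in 45.7% and 33.8%. The window of Slc25a10, the gene with the highest fold change of the family, held none of these 5 motifs. The E-box was in 2 of 8 genes called higher, in 1 of the 3 genes called lower that had a window (Slc25a33) and in 3 of 18 genes not called. These are matches of letters and do not show binding. The windows were not matched for base composition, and no difference between shares was tested.

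Hypoxic-EV and normoxic-EV were then compared gene by gene. Of the 37 tested carrier genes, 8 rose and 6 fell (quasi-likelihood test of edgeR, Benjamini-Hochberg adjusted p under 0.05), which is 37.8% of them, beside 44.2% of all 13303 genes tested (percent called higher 22.7, lower 21.5). Among tested protein-coding genes alone, to which the carriers belong, 47.5% of 11345 were called. The difference between the carriers and these shares was not tested. The median log2 fold change of the tested carriers was 0.01, beside -0.00 for all tested genes. The median size of the change was 0.37 on the log2 scale among the called carriers and 0.36 among all called genes. Over tested genes, called or not, it was 0.15 for the carriers and 0.21 for all genes, and this difference was not tested. A single carrier, Slc25a10, changed by at least 2-fold, as 4.02% of all tested genes did. The groups did not overlap in 18 tested carriers, or 48.6%, beside 52.8% of all tested genes. In bulk RNA, a change in the number of cells with a transcript and a change in its level per cell cannot be told apart.

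**Figure D1:**
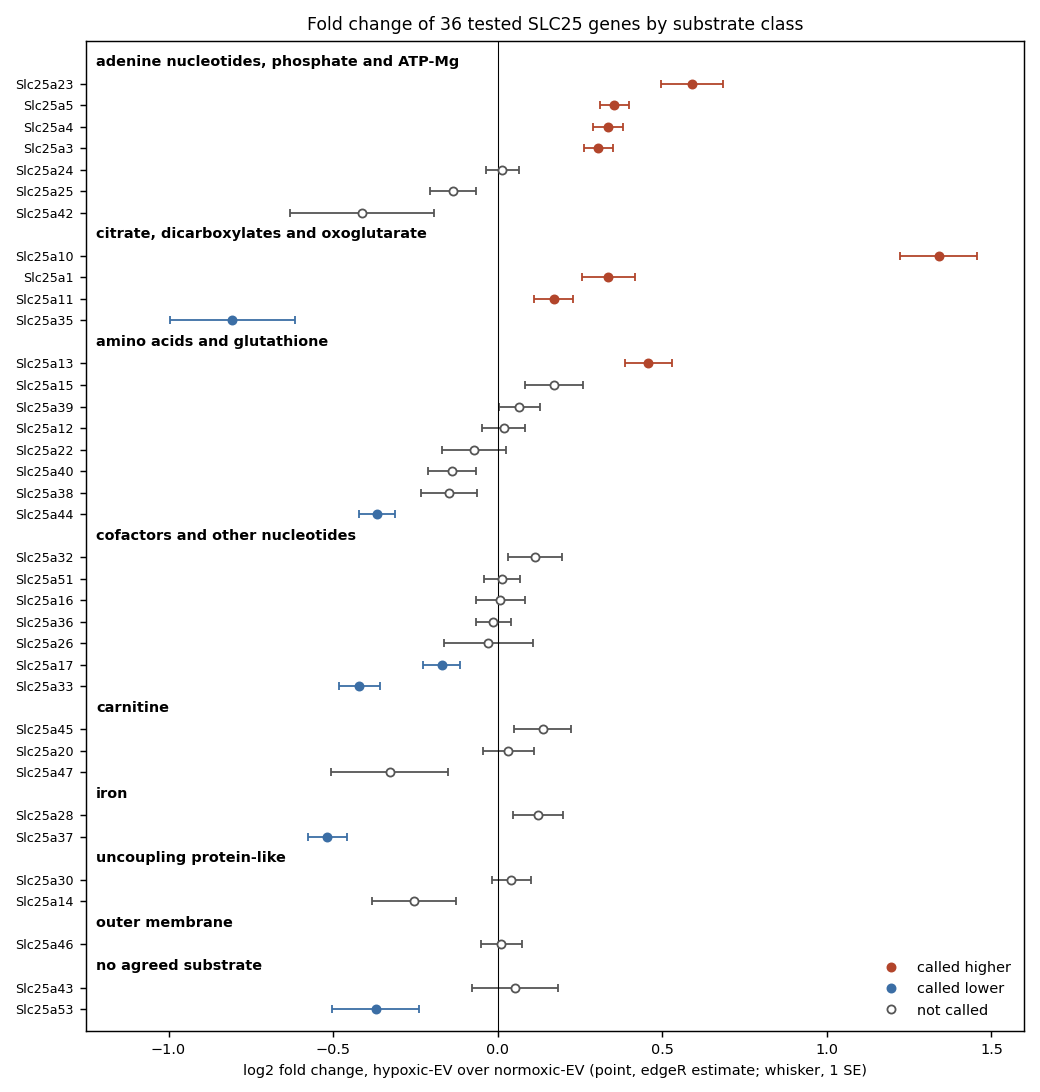
Log2 fold change of 36 of the 37 tested SLC25 genes (horizontal axis, hypoxic-EV over normoxic-EV, with 1 SE) grouped by the substrate class of the protein. The called increases lie in the adenine nucleotide and phosphate class (4), the citrate and dicarboxylate class (3) and the amino acid class (1), and Slc25a10 stands farthest to the right at 1.34. Over all tested genes, 22.7% were called higher.

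The class of adenine nucleotide and phosphate carriers holds the ADP/ATP and phosphate carriers, which supply the ATP synthase with its substrates. ADP/ATP carriers also send ATP to the cytosol. Calcium-regulated ATP-Mg carriers and a coenzyme A carrier were placed in the same class. Of 7 tested genes of this class, 4 rose and 0 fell, and the other 3 were not called. Here and in the classes below, such counts stand beside 22.7% of all tested genes called higher and 21.5% called lower. Slc25a5, which encodes the ADP/ATP carrier of growing cells, had 339, 335 and 343 FPKM in hypoxic-EV libraries 1 to 3, against 268, 256 and 272 FPKM in normoxic-EV libraries (1.28-fold higher, edgeR log2 fold change 0.35 ± 0.0450 SE, adjusted p = 1.63e-06). Slc25a4, its paralogue of heart and muscle, had 84.1, 81.6 and 79.2 FPKM in hypoxic-EV and 64.7, 63.3 and 66.0 FPKM in normoxic-EV (edgeR log2 fold change 0.34 ± 0.0455 SE, adjusted p = 4.00e-06). Every hypoxic-EV library lay above every normoxic-EV library for both genes. In GRCm39, Slc25a5 lies on chromosome X from 36059304 to 36062460 and Slc25a4 on chromosome 8 from 46659834 to 46664321. The share of Slc25a5 in their summed FPKM was 80.6 ± 0.594% in hypoxic-EV and 80.4 ± 0.194% in normoxic-EV (SD, n = 3 each).

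Slc25a3, whose protein brings phosphate and copper into the matrix, had 84.9, 86.9 and 85.1 FPKM in hypoxic-EV and 69.2, 69.1 and 69.7 FPKM in normoxic-EV (edgeR log2 fold change 0.31 ± 0.0436 SE, adjusted p = 7.60e-06). The spread within each group was small beside the difference. Slc25a3 lies on chromosome 10 from 90952436 to 90959921. Slc25a23, one of the genes for calcium-regulated carriers that exchange ATP-Mg for phosphate, had 3.88, 3.25 and 3.32 FPKM in hypoxic-EV and 2.48, 2.26 and 2.20 FPKM in normoxic-EV (1.51-fold higher, SE of the edgeR log2 fold change 0.0940, adjusted p = 2.92e-05). Its relatives of the same function were not called: Slc25a24, the most abundant of them at 25.6 FPKM over all libraries, had a log2 fold change of 0.01, and Slc25a25 had -0.14. Slc25a25 shares exon bases with Naif1 on the opposite strand, a gene with 38.5% as many counts that was itself called lower, at a log2 fold change of -0.34 (adjusted p = 0.0133 in edgeR). Slc25a42, a coenzyme A carrier gene of low level, had a log2 fold change of -0.41 (± 0.220 SE, adjusted p = 0.137 in edgeR), and without hypoxic-EV replicate 3 it was called lower at -0.65 (adjusted p = 0.0434 in edgeR).

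**Figure D2:**
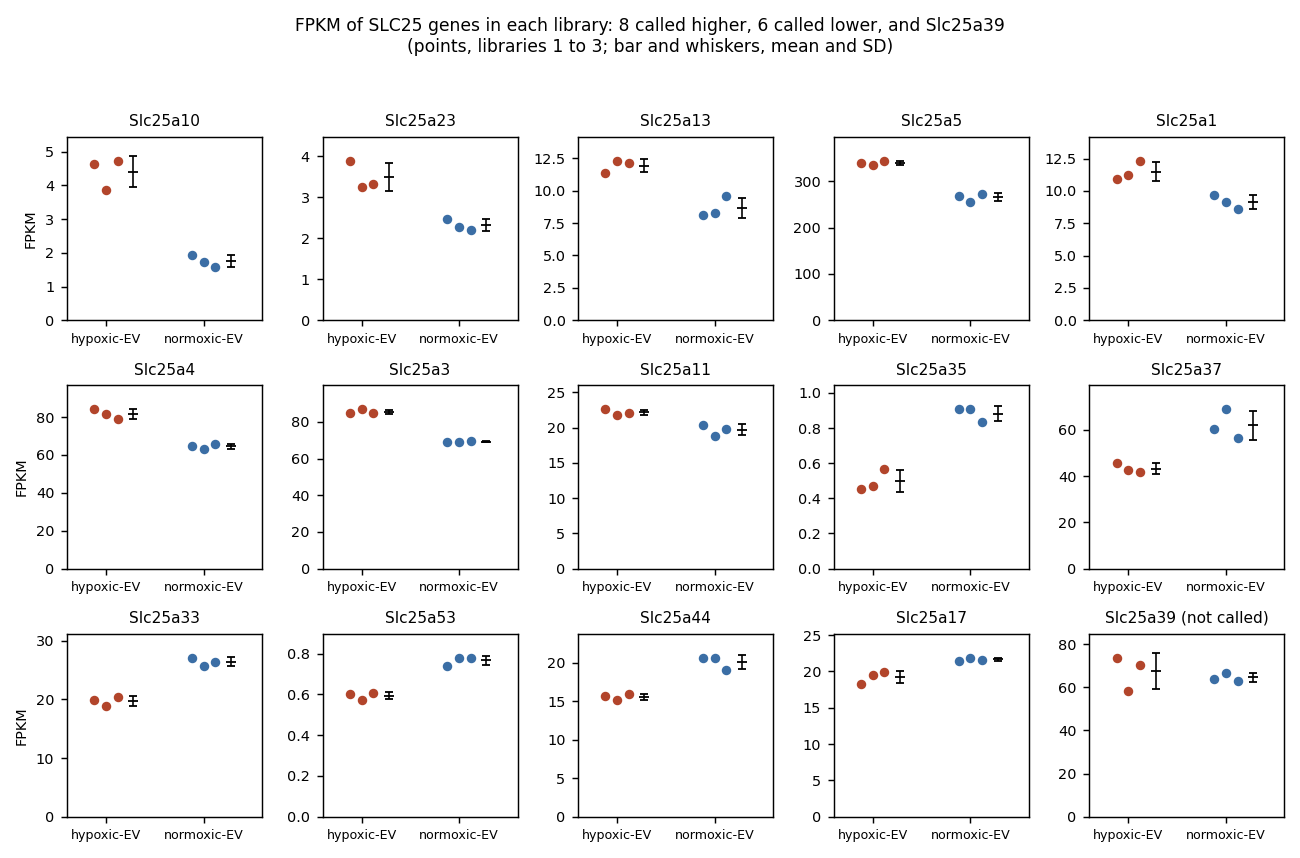
FPKM (vertical axis, from 0) in each of the 3 hypoxic-EV and 3 normoxic-EV libraries for the 14 called SLC25 genes and for Slc25a39, with group mean and SD. The groups do not overlap in any of the 14 called genes, which were picked by their call in these same libraries. Over all tested carriers 48.6% did not overlap (in CPM), beside 52.8% of all tested genes. The hypoxic-EV libraries of Slc25a39 lie on both sides of the normoxic-EV ones.

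Carriers of citrate, dicarboxylates and oxoglutarate connect the citric acid cycle with the cytosol. Each of the 4 tested genes of this class was called, 3 higher and 1 lower. The gene called lower, Slc25a35, was placed in this class although its transport activity is not settled. Slc25a10 (ENSMUSG00000025792, chromosome 11, 120382666 to 120390013, GRCm39) encodes the dicarboxylate carrier, which exchanges malate or succinate for phosphate. It had 4.63, 3.87 and 4.72 FPKM in hypoxic-EV and 1.93, 1.74 and 1.58 FPKM in normoxic-EV. The lowest hypoxic-EV library was thus far above the highest normoxic-EV library (2.53-fold higher, edgeR log2 fold change 1.34 ± 0.117 SE, adjusted p = 7.36e-09). Slc25a10 was also the single carrier gene among the 462 genes of the authors' deposited table, with a log2 fold change of 1.34 and an adjusted p of 5.41e-17 there; every gene of that table had an absolute log2 fold change above 1.

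Slc25a1, the citrate carrier gene, had 10.9, 11.2 and 12.3 FPKM in hypoxic-EV and 9.72, 9.13 and 8.62 FPKM in normoxic-EV (edgeR log2 fold change 0.34 ± 0.0800 SE, adjusted p = 0.00173). Slc25a11, whose protein exchanges oxoglutarate for malate in the malate-aspartate shuttle, had 22.6, 21.8 and 22.1 FPKM in hypoxic-EV and 20.4, 18.9 and 19.9 FPKM in normoxic-EV (edgeR log2 fold change 0.17 ± 0.0597 SE, adjusted p = 0.0251). Both genes were higher in each hypoxic-EV library, but the call of Slc25a11 ended in 4 of the 6 fits that left out a replicate, those without hypoxic-EV replicate 1 or 3 or normoxic-EV replicate 2 or 3, and in DESeq2 (adjusted p = 0.0573); over all alternatives its adjusted p ran from 0.0205 to 0.142. Slc25a11 shares 189 exon bases with Rnf167 on the opposite strand, a gene with 64.9% as many counts and a log2 fold change of -0.07. Slc25a35, a gene of low level whose transport activity is not settled, fell to 0.455, 0.468 and 0.569 FPKM in hypoxic-EV, against 0.907, 0.906 and 0.833 FPKM in normoxic-EV (edgeR log2 fold change -0.81 ± 0.190 SE, adjusted p = 0.00161). It shares 1151 exon bases with Rangrf on the other strand, which was listed with 7 counts in all, so reads of Rangrf cannot be separated from those of Slc25a35 with certainty.

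Among carriers of amino acids and glutathione, 1 of 8 tested genes rose, 1 fell and 6 were not called. Slc25a13 encodes citrin, an aspartate/glutamate carrier of the malate-aspartate shuttle, and lies on chromosome 6 from 6041218 to 6217173. It had 11.3, 12.3 and 12.1 FPKM in hypoxic-EV and 8.11, 8.30 and 9.55 FPKM in normoxic-EV, with no overlap (1.37-fold higher, SE of the edgeR log2 fold change 0.0712, adjusted p = 2.20e-05). Slc25a12, which encodes aralar, the other aspartate/glutamate carrier, had a log2 fold change of 0.02 (± 0.0644 SE, adjusted p = 0.849 in edgeR). Slc25a44, encoding a carrier of branched-chain amino acids and located on chromosome 3 from 88317805 to 88332446, fell to 15.6, 15.1 and 15.9 FPKM in hypoxic-EV, against 20.6, 20.7 and 19 FPKM in normoxic-EV (edgeR log2 fold change -0.37 ± 0.0554 SE, adjusted p = 1.54e-05).

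The abundant glutathione carrier gene Slc25a39 had 73.8, 58.4 and 70.5 FPKM in hypoxic-EV and 63.8, 66.8 and 63.0 FPKM in normoxic-EV. The second hypoxic-EV library lay below all normoxic-EV libraries and the other two lay above them (edgeR log2 fold change 0.07 ± 0.0622 SE, adjusted p = 0.422). Without hypoxic-EV replicate 2 the gene was called higher, at a log2 fold change of 0.16 (adjusted p = 0.00681 in edgeR). The ornithine carrier gene Slc25a15 had a log2 fold change of 0.17, the glutamate carrier gene Slc25a22 had -0.07, the glycine carrier gene Slc25a38 had -0.15, and Slc25a40, the paralogue of Slc25a39, had -0.14, none of them called.

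Of 8 tested genes for carriers of cofactors and other nucleotides, 0 rose and 2 fell. Slc25a33, encoding a carrier of pyrimidine nucleotides and located on chromosome 4 from 149828493 to 149858734, fell to 19.9, 18.8 and 20.4 FPKM in hypoxic-EV, against 27.1, 25.7 and 26.4 FPKM in normoxic-EV (1.34-fold lower, SE of the edgeR log2 fold change 0.0611, adjusted p = 9.84e-06). Slc25a17, encoding a carrier of the peroxisomal membrane, had 18.3, 19.4 and 19.9 FPKM in hypoxic-EV and 21.5, 21.9 and 21.6 FPKM in normoxic-EV (edgeR log2 fold change -0.17 ± 0.0562 SE, adjusted p = 0.0184). The groups did not overlap in either gene, but the call of Slc25a17 ended without hypoxic-EV replicate 1 (adjusted p = 0.0937), without normoxic-EV replicate 2 (0.0620) and with no filter on low counts (0.0650), and was kept under the other alternatives, down to an adjusted p of 0.0150. Among genes of the class that were not called, Slc25a32, the folate carrier gene, had a log2 fold change of 0.11, and Slc25a51, the NAD carrier gene, had 0.01. Slc25a16, Slc25a36 and the S-adenosylmethionine carrier gene Slc25a26 had 0.01, -0.01 and -0.03.

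The iron carriers, or mitoferrins, bring iron to the matrix for heme and iron-sulfur clusters. Slc25a37 (ENSMUSG00000034248, chromosome 14, 69479297 to 69522561), the gene of mitoferrin 1, fell to 45.8, 42.5 and 41.6 FPKM in hypoxic-EV, against 60.5, 68.9 and 56.5 FPKM in normoxic-EV. All hypoxic-EV libraries were below all normoxic-EV libraries, which were the more scattered group (1.43-fold lower, edgeR log2 fold change -0.52 ± 0.0588 SE, adjusted p = 3.60e-07). Slc25a28, the gene of mitoferrin 2, stood at 8.14 FPKM over all libraries and had a log2 fold change of 0.12 (adjusted p = 0.202 in edgeR); without hypoxic-EV replicate 3 it was called higher, at 0.21 (adjusted p = 0.0348 in edgeR).

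None of the 3 tested genes of carnitine and related carriers was called. Slc25a20, the carnitine/acylcarnitine carrier gene that serves fatty acid oxidation, had a log2 fold change of 0.03 (SE 0.0767), Slc25a45 had 0.14 and Slc25a47, known from liver, had -0.33. The genes of carriers resembling uncoupling proteins had log2 fold changes of 0.04 for Slc25a30 and -0.25 for Slc25a14, of which the second was called lower without hypoxic-EV replicate 3 (edgeR log2 fold change -0.40, adjusted p = 0.0269) and in no other alternative. Slc25a46, whose protein acts at the outer membrane in mitochondrial shape, had 0.01. Slc25a43 had 0.05, and Slc25a53, a gene without an agreed substrate, fell to 0.60, 0.573 and 0.606 FPKM in hypoxic-EV, against 0.741, 0.778 and 0.781 FPKM in normoxic-EV (edgeR log2 fold change -0.37 ± 0.132 SE, adjusted p = 0.0273). The groups did not overlap, but the call of Slc25a53 ended in every fit without a replicate but that without normoxic-EV replicate 1, with no filter and in DESeq2, at adjusted p-values up to 0.123.

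Summed over the 47 genes, carrier transcripts came to 883, 859 and 876 FPKM in hypoxic-EV libraries 1 to 3 and to 785, 780 and 783 FPKM in normoxic-EV libraries. The sum was higher in each hypoxic-EV library, at 1.12 times the normoxic-EV mean. In CPM, where long genes weigh more, the ratio was 1.06. The ADP/ATP carrier genes Slc25a4 and Slc25a5 alone gave 421 ± 3.53 FPKM in hypoxic-EV and 330 ± 9.62 FPKM in normoxic-EV (SD, n = 3 each). Without Slc25a3, Slc25a4, Slc25a5 and Slc25a37, the sum was 323 ± 8.48 FPKM in hypoxic-EV and 321 ± 2.08 FPKM in normoxic-EV (SD, n = 3 each). The genes left out are the called ones among the 5 of highest FPKM, so the choice follows their outcome in these data. Of them, Slc25a37 went the other way, at 43.3 ± 2.25 FPKM in hypoxic-EV and 62.0 ± 6.35 FPKM in normoxic-EV. Slc25a39, which was not called, was kept. The nearness of the remaining sums depends on this choice. No p is given for these sums, since the genes were grouped with earlier results known.

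**Figure D3:**
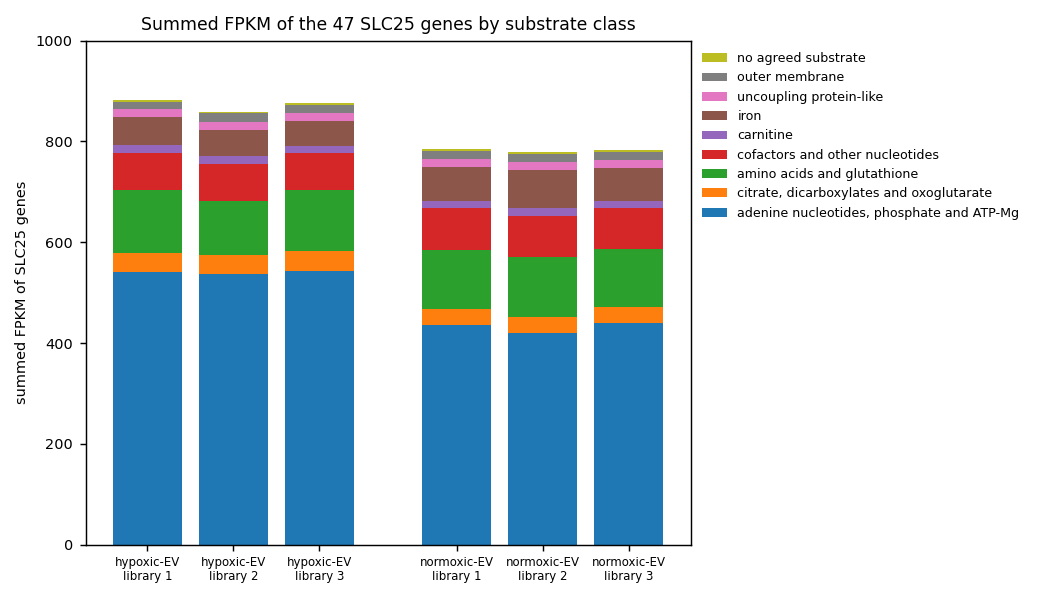
Summed FPKM (vertical axis) of the 47 SLC25 genes in each library, stacked by substrate class. The block of adenine nucleotide and phosphate carriers reaches 537 to 542 FPKM in hypoxic-EV libraries and 420 to 441 FPKM in normoxic-EV libraries, and the iron block is smaller in hypoxic-EV.

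Close relatives within the family were compared next, to see whether genes of like carriers changed alike. The longest coding sequences of the 47 genes were aligned pairwise, and 8 pairs of tested genes were each other's closest relative, with identities from 53% to 77.6%. For each pair the log2 ratio of FPKM was taken per library, with the gene of the higher fold change on top, so that every ratio is higher in hypoxic-EV on average by construction. Only the size and the overlap of the groups are read. The ratios were compared by a two-sided exact permutation test, in which 3 against 3 cannot go below p = 0.1. The ratio did not overlap between the groups in 5 of the 8 pairs, for which no share over other gene pairs was computed (52.8% of single tested genes did not overlap), each at an exact permutation p = 0.1 (0.16 after Benjamini-Hochberg adjustment over the 8), so no pair could pass 0.05 in this design.

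Slc25a23 stood against Slc25a25 at a log2 ratio of -0.26 ± 0.167 in hypoxic-EV and -0.98 ± 0.0923 in normoxic-EV (SD, n = 3 each). The mitoferrin ratio, Slc25a28 over Slc25a37, was -2.35 ± 0.104 in hypoxic-EV and -2.99 ± 0.162 in normoxic-EV, so that mitoferrin 1 remained the more abundant transcript in all 6 libraries. The ratio of Slc25a13 over Slc25a12 was 1.01 ± 0.102 in hypoxic-EV and 0.56 ± 0.225 in normoxic-EV, and normoxic-EV library 3, at 0.82, came close to the lowest hypoxic-EV library, at 0.90. The pyrimidine nucleotide carrier ratio, Slc25a36 over Slc25a33, was -1.38 ± 0.123 in hypoxic-EV and -1.79 ± 0.0530 in normoxic-EV. The fifth pair, Slc25a30 over Slc25a14, averaged 2.24 ± 0.259 in hypoxic-EV and 1.93 ± 0.0251 in normoxic-EV, and its nearest libraries lay at 1.97 in hypoxic-EV and 1.95 in normoxic-EV. The groups overlapped for Slc25a16 over Slc25a42 and for Slc25a39 over Slc25a40. The ADP/ATP carrier pair, which had the most similar coding sequences at 77.6%, had a ratio of 2.05 ± 0.0551 in hypoxic-EV and 2.04 ± 0.0178 in normoxic-EV (difference 0.02, two-sided exact permutation p = 0.9).

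**Figure D4:**
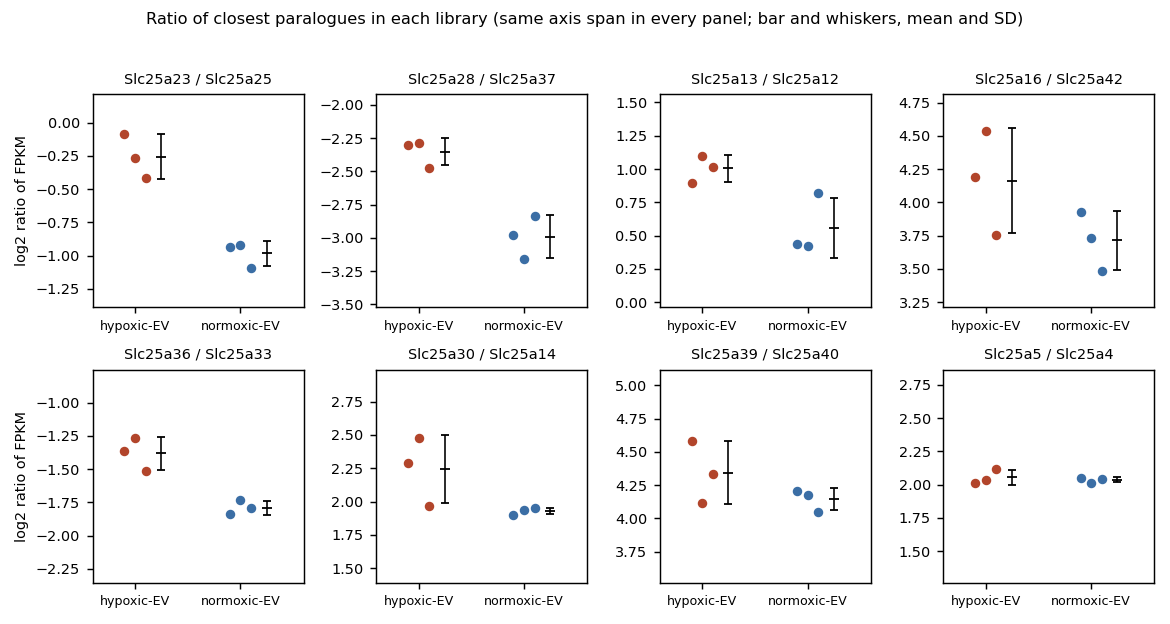
Log2 ratio of FPKM between closest SLC25 paralogues (vertical axis, with the same span in every panel) in each hypoxic-EV and normoxic-EV library, with mean and SD. The gene of the higher fold change is on top in each ratio; the groups do not overlap in 5 pairs, and Slc25a5 over Slc25a4 lies at 2.05 in hypoxic-EV and 2.04 in normoxic-EV.

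Genes that work beside the carriers were taken from lists chosen by function, and their counts stand beside 22.7% of all tested genes called higher and 21.5% called lower. Of the family members with other symbols, the uncoupling protein gene Ucp2 rose to 230.2 ± 17.8 CPM in hypoxic-EV, against 147 ± 5.59 CPM in normoxic-EV (edgeR log2 fold change 0.65, adjusted p = 4.14e-09), while Mtch1 and Mtch2, genes of the outer membrane, were not called, both at 0.13. Ucp1 had 0 counts and Ucp3 was under the filter. Of 21 other inner-membrane transporter genes, 5 rose and 7 fell. Abcb8, an ABC transporter gene, had a log2 fold change of 0.51 and Oxa1l, the insertase gene, 0.44, although Oxa1l shares exon bases with Slc7a7, at 48.5% of its count. Mcur1 and Mcub, a regulator and a dominant-negative subunit of the mitochondrial calcium uniporter, had -0.30 and -0.29. Of 4 genes for outer-membrane channels, 2 rose, Vdac1 at 0.46 and Vdac2 at 0.23.

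Carrier proteins reach the inner membrane through the TOM complex and the TIM22 translocase. Of 15 tested genes of this route, 4 rose, 1 fell and 10 were not called. The largest called changes were small: Timm29 and Tomm40 had log2 fold changes of 0.18, Tomm5 had 0.16 and Tomm7 had -0.20. Timm29 shares exon bases with Yipf2 on the other strand, at 13.7% of its count.

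Of 36 enzyme genes that act on carried substrates, 21 rose, 3 fell and 12 were not called, beside 22.7% of all tested genes called higher and 21.5% called lower. Their median log2 fold change was 0.18, beside -0.00 for all tested genes; the difference was not tested. Cpt1a, which makes the acylcarnitines that Slc25a20 imports, rose to 68.8 ± 1.80 CPM in hypoxic-EV, against 23.6 ± 0.898 CPM in normoxic-EV (SD, n = 3 each, edgeR log2 fold change 1.54, adjusted p = 6.98e-14). Acod1, the itaconate-producing enzyme gene of activated macrophages, fell to 481 ± 28 CPM in hypoxic-EV, against 942 ± 82.0 CPM in normoxic-EV (adjusted p = 2.61e-11 in edgeR). Ak4, an adenylate kinase gene of the matrix, and Mthfd1l, a gene of mitochondrial folate metabolism, had log2 fold changes of 0.96 and 0.80. Among enzymes of the malate-aspartate shuttle, named after their values were seen, the cytosolic malate dehydrogenase gene Mdh1 had 0.50, Mdh2 0.19, the mitochondrial aspartate aminotransferase gene Got2 0.17 and the cytosolic Got1 -0.21, all called. The genes of citrate synthase and of ATP citrate lyase, Cs and Acly, also named afterwards, had log2 fold changes of 0.34 and 0.18.

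**Figure D5:**
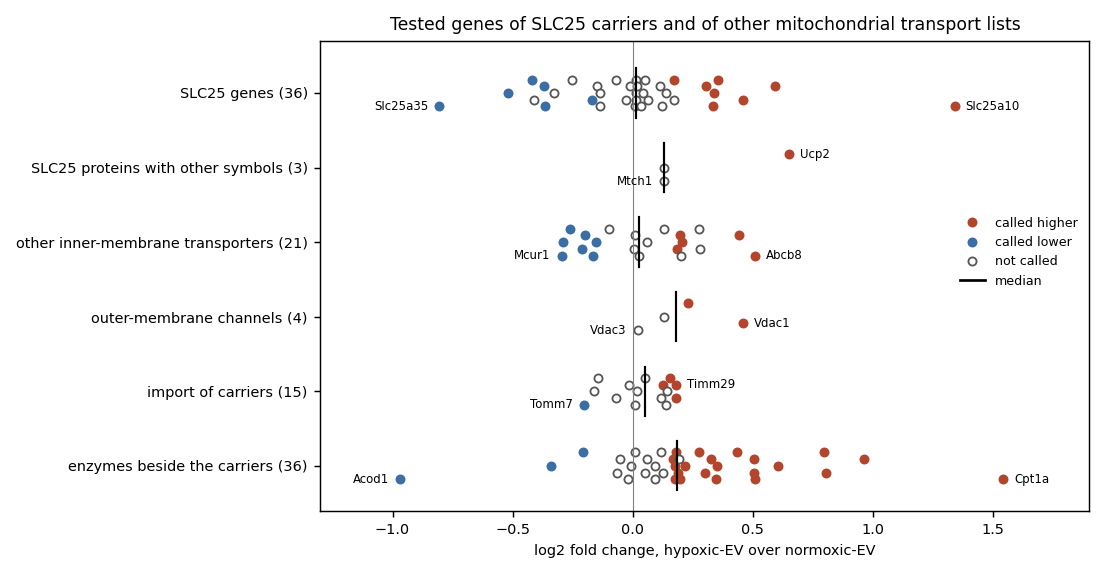
Log2 fold change (horizontal axis, hypoxic-EV over normoxic-EV) of 36 tested SLC25 genes and of tested genes of 5 other lists, 1 point per gene, with a line at each median. Slc25a10 at 1.34 and Slc25a35 at -0.81 bound the carrier row, whose median is 0.01, and the enzyme row has a median of 0.18.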

How the data were processed

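Counts per gene, as whole numbers, were deposited by the authors for 6 poly(A) RNA libraries, made per the labels' protocols with TruSeq chemistry and read in pairs. HISAT2, featureCounts, DESeq2 and build GRCm39 appear in the submitters' processing notes; the sources used here give no versions, annotation, strand or multi-mapping settings, so reads of genes overlapping on opposite strands cannot be told apart. The deposited FPKM values equalled, for each of 26398 genes with a count, the count over library total and a fixed length (relative tolerance 1e-06). A deposited table of the authors' comparison holds log2 fold changes and adjusted p-values for 462 genes; a table of normalized counts was not used.

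Counts were tested with edgeR 4.0.16 (R 4.3.3) on all 6 libraries: filterByExpr (minimum count 10, minimum total 15), TMM scaling, quasi-likelihood F-test, two-sided, Benjamini-Hochberg adjustment over 13303 genes, called at an adjusted p under 0.05. SE is the log2 fold change over the root of F. CPM is TMM-scaled and values after ± are SD unless marked SE. The procedure was run on simulated counts with the same spread for every gene and far fewer changed genes than were called here. That run does not give the rate of false calls in these data. Libraries of a group differed by a chi-square per degree of freedom of 2.72 to 5.84, more than counting noise, and each was kept as 1 sample. Floors use 3 counts and cover counting error only, since the labels name no molecular identifiers that would tell PCR copies apart. Coding sequences came from GENCODE M21 (GRCm38) and were aligned with Biopython 1.88; permutation tests used scipy 1.17.1. Protein sequences were not used here.

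The carrier family (by annotation and symbol alone), the substrate classes and the lists were chosen with earlier results of these data known, and no list was tested as a set. The values of 1 tested carrier that was not called are not reported here, but it is kept in all counts and sums. Values per library are given for every called carrier, up to 10 in each direction, whose groups did not overlap and whose higher group reached 1 CPM, and for the 5 of highest FPKM; from each other list the 4 called genes of largest change are named. The alternatives were DESeq2 1.42.0, RLE or no scaling factors, other count filters, each replicate left out, and a replicate block.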

Additional observations from a re-analysis of the deposited data

How the results depend on the processing

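The 8 increases and 6 decreases among tested carriers became 7 and 5 with DESeq2, 8 and 5 with no filter on low counts, and remained at 8 and 6 in number with RLE scaling, with library totals only and with at least 1 CPM in 3 libraries. Without each replicate in turn they ran from 7 to 9 higher and from 4 to 7 lower. Of the 14 called genes, 11 were called in each of the 12 alternatives and none changed sign; the calls of Slc25a11, Slc25a17 and Slc25a53 were lost in some, and 4 other genes (Slc25a14, Slc25a28, Slc25a39 and Slc25a42) were each called when 1 certain replicate was left out. The cause was not tested. The fit with a replicate block also called 8 higher and 6 lower. Deviations of same-numbered libraries from their group means correlated at -0.0156, -0.0177 and -0.0175. These values gave no sign of pairs, but shared handling without a strong common shift would not show in them. The median log2 fold change of the tested carriers ran from 0.0061 to 0.0386 without each replicate. The summed level, 1.12 times higher by FPKM (1.11 to 1.12 without each replicate), was 1.06 times higher by CPM, which does not divide by gene length.

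For the 11 genes that were not called and changed sign, the log2 fold change without each replicate in turn ran from -0.0003 to 0.106 (Slc25a43), -0.0066 to 0.0727 (Slc25a30), -0.0029 to 0.0913 (Slc25a20), -0.0373 to 0.0529 (Slc25a12), -0.0053 to 0.049 (Slc25a24), -0.0099 to 0.0394 (Slc25a51), -0.0797 to 0.0577 (Slc25a46), -0.044 to 0.0431 (Slc25a16), -0.0417 to 0.0263 (Slc25a36), -0.102 to 0.0986 (Slc25a26) and -0.167 to 0.0287 (Slc25a22). Slc25a36 was also at 0.0024 with no filter. The direction of these genes was not resolved with 3 libraries a group.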
